A study of Mus musculus with 6 samples.

Results

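The comparison described here set the prostates of 2 homozygous mice (Trp53R270H/R270H, animals 47 and 49) against those of 2 heterozygous mice (Trp53R270H/+, animals 37 and 40), which are 4 of the 6 libraries of the series. The other 2 came from wildtype mice (Trp53+/+, animals 39 and 41), whose values are given as a reference. All mice were of the strain B6.129S4-Trp53tm3.1Tyj/J, were about 3 months old, received 5 Gy of irradiation to the whole body and gave their prostates 6 h later, so every genotype was irradiated and none of the values is from an unirradiated mouse. Heterozygous mice keep 1 wildtype allele and homozygous mice have none but carry a second mutant allele, so the loss of the wildtype allele and the gain of a mutant allele cannot be told apart. The allele is carried in the germline, so cells outside the prostate epithelium carry it too. RNA was sequenced from whole glands. Expression is given as FPKM, the number of sequenced fragments scaled by transcript length and by all mapped fragments. Of 47719 listed genes, the 13864 whose FPKM averaged 1 or more in the 4 mutant mice were compared.

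p53 is a transcription factor that is stabilised after DNA damage and switches on genes for cell cycle arrest, apoptosis, repair and metabolic control, together with Mdm2, the ligase that degrades it. Arginine 270 of the mouse protein lies in the part that contacts DNA, and p53 binds DNA as a tetramer in which wildtype and mutant subunits can mix. The target genes are the usual readout of p53 activity after irradiation.

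Codon 270 lies in exon 8 of 11 of Trp53 (ENSMUSG00000059552, chromosome 11, 69580359 to 69591873, plus strand of GRCm38). The reference bases around it are shown because they hold the position that separates the genotypes, with the codon in capitals, at chr11:69589577-69589639.
Trp53: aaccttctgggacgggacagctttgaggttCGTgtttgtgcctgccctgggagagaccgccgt
Trp53 had an FPKM of 20.9 and 19.6 in the heterozygous mice against 20.8 and 18.3 in homozygous mice. These values overlapped (log2 fold change -0.05, 95% interval -0.42 to 0.32), and gene-level FPKM does not separate the alleles, so they do not check a mouse's genotype.

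Mouse 47 stood apart from the other mutant mice. Pbsn, which encodes the prostate secretory protein probasin, had an FPKM of 257 in mouse 47 against 7329 in mouse 49 and 8360 and 8174 in the heterozygous mice. Tgm4, which encodes a prostate transglutaminase, had 131 in mouse 47, 3179 in mouse 49, and 6674 and 4124 in the heterozygous mice. Svs1 and Svs6, which encode secretions of the seminal vesicle, had 9136 and 26147 in mouse 47, while the other mutant mice lay between 56.2 and 388 for Svs1 and between 178 and 903 for Svs6. The 6 prostate secretory markers in the files summed to 2595 in mouse 47 and 20545 in mouse 49, against 48104 and 22441 in the heterozygous mice. Of the 48104 of mouse 37, 24775 came from Sbp, which was listed at 0 in the other mutant mice. The 9 seminal vesicle markers summed to 73241 and 35359 in homozygous and 57639 and 56042 in heterozygous mice, with 3 of them listed at 0 in mouse 47 and 1 in mouse 49. In the wildtype mice these markers summed to 3543 (mouse 39) and 49814 (mouse 41), so mouse 39 also stood apart here. The 2 mice of a genotype differed at least 2-fold in 6.58% of tested genes for homozygous, 2.06% for heterozygous and 6.11% for wildtype mice. The epithelial keratin gene Krt18 and the other luminal epithelial markers differed less, summing to 1536 and 1490 in homozygous and 1975 and 1708 in heterozygous mice. In 4 of these 6 luminal markers both homozygous values lay below both heterozygous values (23.9% of all genes), and 2 overlapped. Their median log2 fold change was -0.26. Some very abundant genes were listed at exactly 0 in single mice, among them the secretory genes Sbp (mice 39, 40, 47 and 49), Svs4 and Svs5 (mouse 47) and Svs2 (mice 47 and 49, against 11734 and 14734 in the heterozygous mice). A listed 0 of this kind may be a failed estimate, so no fold is given for these genes. Several of the results below, though not all, are therefore also given without mouse 47.

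**Figure D1:**
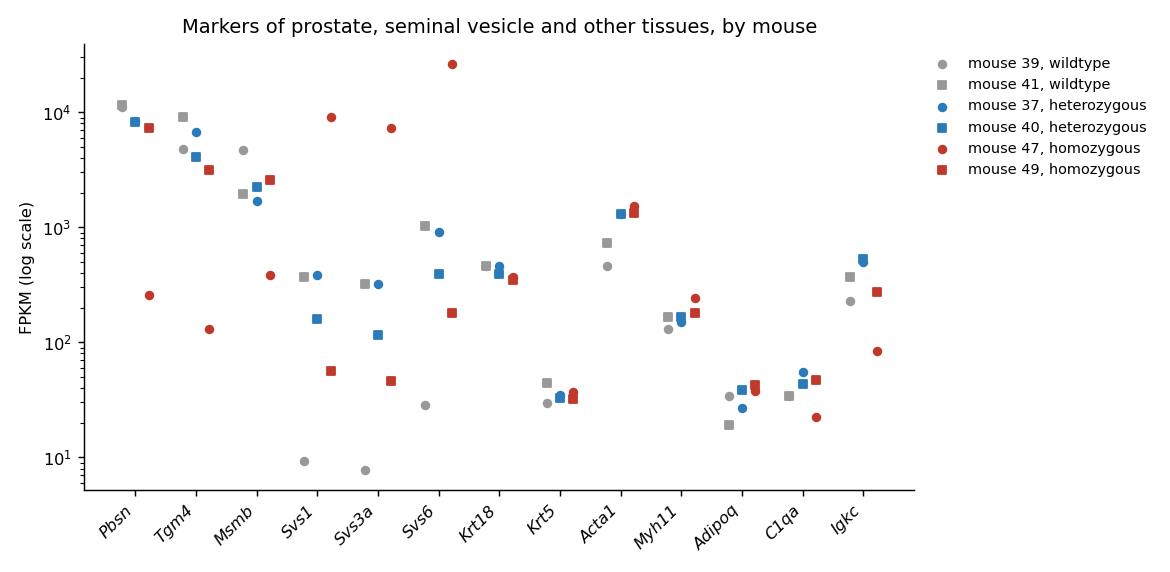
FPKM (log axis) of 13 marker genes in each of the 6 mice, with 1 point per mouse, colours for genotype and shapes for the 2 mice of a genotype. Homozygous mouse 47 lies far below all other mice for Pbsn and Tgm4 and far above them for Svs1, Svs3a and Svs6.

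Across the 13864 genes, homozygous and heterozygous mice differed with an adjusted p under 0.05 in 2 genes (0.0144%), 1 in each direction, in a limma fit of log2(FPKM + 0.1) over the 3 genotypes with Benjamini-Hochberg adjustment. Cdkn1a fell in homozygous mice, and the small nuclear RNA gene Gm24967 was listed above 0 in the homozygous mice and at 0 in the other 4. At an unadjusted p under 0.05, 883 genes (6.37%) differed. Requiring also at least a 1.5-fold difference, here called the unadjusted criterion, left 388 genes (2.8%), and among them 133 (0.959%) had higher and 255 (1.84%) lower means in homozygous mice. Without a test, both homozygous values lay above both heterozygous values in 2516 genes (18.1%) and below them in 3311 (23.9%), the backgrounds for the counts of list members below. The median log2 fold change of all tested genes was -0.03. The direction of the whole table depended on scaling: after quantile normalization, 178 genes were higher and 218 lower by the unadjusted criterion, and 3097 lay above and 2611 below without overlap. Single mice moved these counts: the adjusted calls numbered 0 without mouse 37 or mouse 40, 12 without mouse 47 and 46 without mouse 49, and the unadjusted criterion gave 142 genes without mouse 37 and 1301 without mouse 49. With 2 mice per group, an exact permutation test of a single gene cannot go below p = 0.333. Every p given here therefore rests on limma, which combines a gene's own spread within genotypes with the spread of all tested genes. Both are taken from the mice in that fit.

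**Figure D2:**
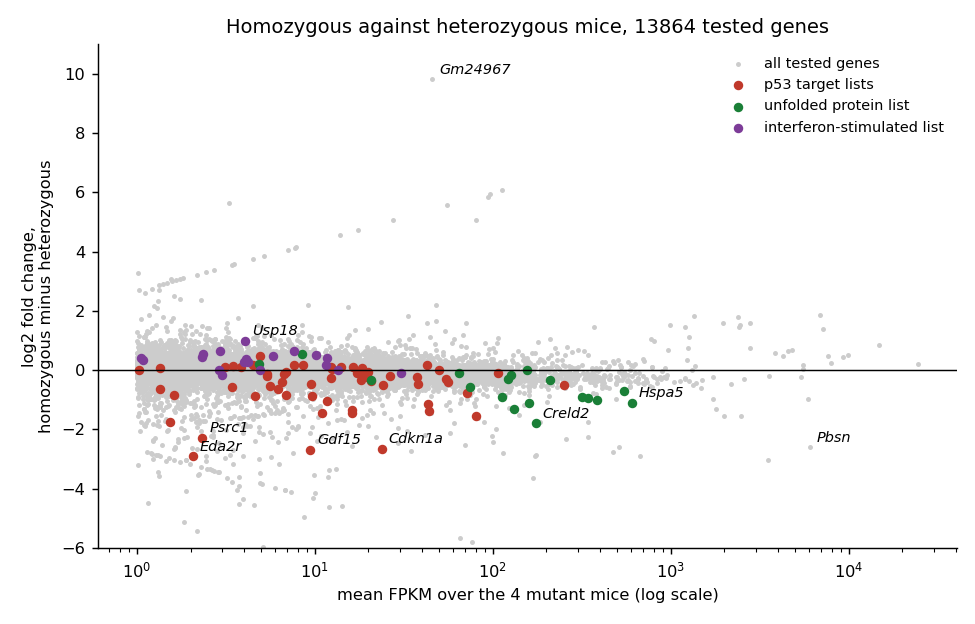
Log2 fold change of homozygous minus heterozygous mice, on the log2(FPKM + 0.1) scale, against the mean FPKM of the 4 mutant mice (log axis) for the tested genes, with 6 genes outside the vertical axis. The p53 target genes (red) reach down to -2.89 and the unfolded protein genes (green) to -1.79, while all genes centre on -0.03.

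Cdkn1a (ENSMUSG00000023067, chromosome 17, 29090976 to 29100727, plus strand) was the protein-coding gene that passed the adjusted threshold. It encodes p21, the inhibitor of cyclin-dependent kinases through which p53 arrests the cell cycle. Its FPKM was 40.5 and 41.4 in the heterozygous mice against 6.70 and 6.17 in homozygous mice, and 109 and 101 in the wildtype mice. The 3 genotypes did not overlap, and the 2 mice of a genotype lay close together. The fall between heterozygous and homozygous mice was 6.29-fold (log2 fold change -2.65, SE 0.112, adjusted p = 0.0039 from limma, where SE is the standard error). It kept its size without mouse 37 (-2.67) or mouse 40 (-2.64), where the adjusted p from limma was 0.0902 and 0.138. Without mouse 47 the log2 fold change of Cdkn1a was -2.71. In bulk tissue, fewer cells that express a gene and less RNA per cell cannot be told apart.

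Of the 62 p53 target genes considered, 58 passed the filter on low values. Of these, 19 were lower by the unadjusted criterion, Cdkn1a among them, and 0 were higher, against 1.84% and 0.959% of all genes. Both homozygous values lay below both heterozygous values in 39 (23.9% of all genes) and above them in 4, and the median log2 fold change was -0.31. The list holds genes that the study itself named for their change in these mice, so its direction is not independent evidence. Without mouse 47, 18 of the 58 met the criterion with a median of -0.29, and without mouse 49, 19 did with a median of -0.33. Without mouse 37, 17 met it and the median was -0.21.

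**Figure D3:**
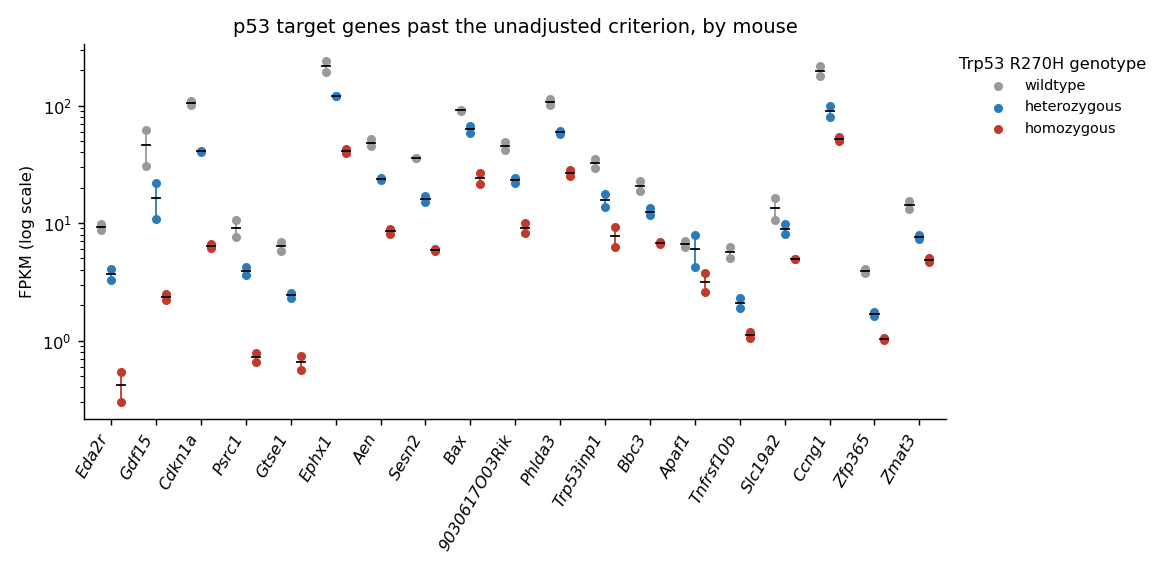
FPKM (log axis) by mouse for the 19 p53 target genes that met the unadjusted criterion, with points for mice, a vertical line joining the 2 mice of a genotype and a black bar at their mean. For every one of the 19 genes both homozygous points (red) lie below both heterozygous points (blue), as from 40.5 and 41.4 to 6.70 and 6.17 for Cdkn1a.

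Among the 8 tested genes of cell cycle arrest, 3 met the criterion. Gtse1, a gene of the G2 phase that also restrains p53, had 2.53 and 2.32 FPKM in heterozygous against 0.566 and 0.738 in homozygous mice (log2 fold change -1.76, SE 0.231). Ccng1, cyclin G1, had 80.6 and 99.7 against 50.1 and 54.2 (-0.78, SE 0.169). The genotypes of neither gene overlapped. Btg2 (-0.22), Plk2 (-0.39) and Gadd45a (-0.36) were lower in both homozygous mice without meeting the criterion, Plk3 (0.08) was higher in both, and Sfn (0.10) overlapped.

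Of 13 tested apoptosis genes, 7 were lower by the criterion and their list median was -0.63. Bax, the pore-forming effector of mitochondrial apoptosis, had 67.6 and 58.9 FPKM in heterozygous against 26.8 and 21.4 in homozygous mice (-1.39, SE 0.151, adjusted p = 0.145 from limma). Aen, a nuclease induced by p53, had 24.1 and 23.2 against 8.96 and 8.12 (-1.46, SE 0.122, adjusted p = 0.0767 from limma). Bbc3, the BH3-only protein PUMA, had 13.3 and 11.6 against 6.87 and 6.66 (-0.87, SE 0.147). The homozygous values of these 3 genes were separate from the heterozygous ones by more than the spread within either pair. The others were Trp53inp1 (-1.03), the death receptor gene Tnfrsf10b (-0.85), the caspase-activating Apaf1 (-0.87) and the RNA-binding Zmat3 (-0.63). Apaf1 had 7.85 and 4.21 against 2.58 and 3.73, and it missed the criterion without mouse 37 (-0.43, unadjusted p = 0.222 from limma) or without mouse 47 (-0.61, unadjusted p = 0.199 from limma). By contrast the death receptor gene Fas had 13.9 and 10.6 in heterozygous against 13.0 and 12.2 in homozygous mice (0.05, 95% interval -0.36 to 0.46). Perp (-0.10) and Pidd1 (0.00) were also close to 0, Ei24 (-0.41) and Siva1 (-0.34) were lower in both homozygous mice, and Bid (0.13) overlapped. Pmaip1 stayed under the filter, with 0.663 and 0.783 against 0.790 and 0.810.

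The 7 tested genes of the p53 family and its feedback had a median of -0.05, and 0 met the criterion. Mdm2 had 26.8 and 29.5 FPKM in heterozygous against 18.8 and 21.1 in homozygous mice, a 1.41-fold difference (-0.50, SE 0.135, unadjusted p = 0.0113 from limma) just under the fold required. Mdm4 (0.12), Ppm1d (-0.13), Rchy1 (0.16) and Rfwd2 (-0.24), the other regulators, differed by less than that. Trp63, which marks basal epithelial cells, was higher in both homozygous mice, with 4.05 and 4.19 against 5.54 and 5.94 (0.47, unadjusted p = 0.0285 from limma). The other basal markers did not share this rise. Krt15 (-0.22) was lower in both homozygous mice, and Krt5 (0.05), Krt14 (0.22) and Krt17 (0.13) overlapped. The 5 basal markers summed to 127 and 128 in homozygous and 135 and 137 in heterozygous mice. The non-coding gene Trp53cor1 stayed under the filter, at 0.390 and 0.673 in heterozygous against 0.0386 and 0.0854 in homozygous mice, and Trp73 did too, between 0.0956 and 0.114 in the 4 mice.

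Of the 7 repair genes, 0 met the criterion and the median was 0.06. Ddb2, Xpc, Rrm2b, Pcna and Polh ranged from -0.07 for Xpc to 0.17 for Ddb2. Polk, a translesion polymerase, had 3.48 and 4.78 in heterozygous against 2.87 and 2.53 in homozygous mice (-0.58, unadjusted p = 0.0675 from limma), and Ercc5 was at -0.14. Of the 10 metabolic targets, Sesn2, which restrains mTORC1 under stress, met the criterion, with 15.1 and 17.1 against 5.98 and 5.74 (-1.44, SE 0.117, adjusted p = 0.0767 from limma). Its relative Sesn1 did not, with 12.2 and 11.7 against 11.8 and 13.7 (0.10, 95% interval -0.35 to 0.55). The other 8 lay between -0.47 for Ddit4 and 0.18 for Tigar, and Gls2 stayed under the filter.

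Of the 13 other targets, 8 were lower by the criterion, and their median of -0.84 was the lowest of the 6 target lists. Eda2r, a receptor of the tumour necrosis factor family, had 3.28 and 4.09 FPKM in heterozygous against 0.299 and 0.544 in homozygous mice (-2.89, SE 0.289, adjusted p = 0.113 from limma). Gdf15, a stress-induced hormone of the transforming growth factor family, had 22.1 and 10.8 against 2.20 and 2.48 (-2.67, SE 0.436), and its heterozygous mice differed more than its homozygous mice. Psrc1, a microtubule-associated protein, had 4.25 and 3.59 against 0.660 and 0.791 (-2.28). Ephx1, which encodes microsomal epoxide hydrolase, had 121 and 120 against 42.9 and 39.5 (-1.55, SE 0.148, adjusted p = 0.0984 from limma). Phlda3, which restrains Akt, had 61.4 and 57.5 against 28.6 and 25.0 (-1.15). 9030617O03Rik (-1.33), the thiamine transporter gene Slc19a2 (-0.84) and Zfp365 (-0.65) were lower as well. Cgref1 (-0.53) and Rps27l (-0.50) were lower in both homozygous mice by less than 1.5-fold, and Tap1 (-0.25), Ptp4a3 (-0.19) and Abhd4 (0.00) were nearer to 0.

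In all 19 target genes that met the criterion, the mean log2 level of the heterozygous mice lay between those of the wildtype and homozygous mice. Of the log2 difference between homozygous and wildtype mice, the part between heterozygous and homozygous mice ranged over the 19 genes from 35.3% in Zfp365 and 37.9% in Tnfrsf10b to 72.3% in Bax and 80.6% in Apaf1, and was 66.2% in Cdkn1a. Over the 58 targets, the median was -0.52 for heterozygous minus wildtype mice and -0.31 for homozygous minus heterozygous mice. Both differences use the heterozygous mice, so they are set side by side and were not tested against each other.

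Mgmt, a DNA repair methyltransferase reported by others as affected by mutant p53, was lower by the criterion, with 7.80 and 6.28 FPKM in heterozygous against 2.91 and 1.87 in homozygous mice (-1.54, SE 0.252). It was 1 of 7 tested genes of a list of such reported genes. Id4, which inhibits DNA binding by basic helix-loop-helix factors, had 17.2 and 16.8 against 22.9 and 23.5 (0.44, unadjusted p = 0.0135 from limma). Egfr had 1.88 in mouse 47 and 4.84 in mouse 49, on either side of the heterozygous 3.90 and 3.99, and Met (0.10), Pdgfrb (-0.14), Abcb1a (-0.14) and Abcb1b (-0.18) were near 0.

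The promoters of the target genes were searched for the consensus decamer to which p53 binds, in the 250 bases before to 50 bases after each start in RefSeq on GRCm38.p6, on both strands. Of the 50 target genes with a promoter in the table, 16 (32.0%) held it, against 2582 of 27025 genes (9.55%). Of the called genes it was in 5 of 16 (31.2%), namely Cdkn1a, Ccng1, Gtse1, Bax and Aen. Cdkn1a, Gtse1 and Aen each had 2 promoters searched, and in Cdkn1a and Gtse1 the other promoter held no decamer. In Gtse1 the decamer follows the start. In Aen it lies at position -121 from one start and 10 from the other. The stretches of the other 3 genes, whose decamers precede the start, are shown with the decamers in capitals, because Cdkn1a alone of the 5 held a pair of them, 12 bases apart, at chr17:29090886-29090957 on the plus strand. Those of Ccng1 (chr11:40755442-40755491) and Bax (chr7:45467070-45467119) are on the minus strand.
Cdkn1a: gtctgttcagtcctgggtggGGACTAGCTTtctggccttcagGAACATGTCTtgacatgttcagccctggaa
Ccng1: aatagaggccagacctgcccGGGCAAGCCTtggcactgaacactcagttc
Bax: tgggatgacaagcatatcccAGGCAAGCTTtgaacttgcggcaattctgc
A match of letters is a description of the window and not evidence of binding.

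Gm37795 (ENSMUSG00000102813, chromosome 4, 150068539 to 150070997, plus strand), a transcript of unconfirmed coding status, was picked out after its values were seen. Its FPKM was 5.37 and 6.63 in heterozygous mice, 0.413 and 0.362 in homozygous mice, and 16.4 and 10.3 in wildtype mice, without overlap (log2 fold change -3.64, SE 0.268, adjusted p = 0.0613 from limma). It begins within the hairpin of Mir34a, a microRNA gene known as a p53 target, and shares 17 bases with it on the same strand. Mir34a itself was listed at 0 in all 6 mice, in libraries made for messenger RNA. The mature sequence is shown with its seed in capitals, at chr4:150068473-150068494, as the product of the gene that Gm37795 overlaps.
mmu-miR-34a-5p: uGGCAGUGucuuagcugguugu

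The endoplasmic reticulum chaperones and other genes of the unfolded protein response, which fold and check secreted proteins, were mostly lower in homozygous mice. Of 18 tested genes, 9 were lower by the unadjusted criterion (1.84% of all genes) and 0 higher. Homozygous values lay below heterozygous ones without overlap in 13 (23.9% of all genes), and the median log2 fold change was -0.63. The median for heterozygous minus wildtype mice was -0.07, so heterozygous values stayed near wildtype values in this list. In limma, 0 of the 18 passed the adjusted threshold (lowest adjusted p = 0.498 from limma, for Creld2). The list sum was 2314 and 2849 in homozygous mice, beside 4862 and 4200 in heterozygous and 4636 and 5258 in wildtype mice.

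**Figure D4:**
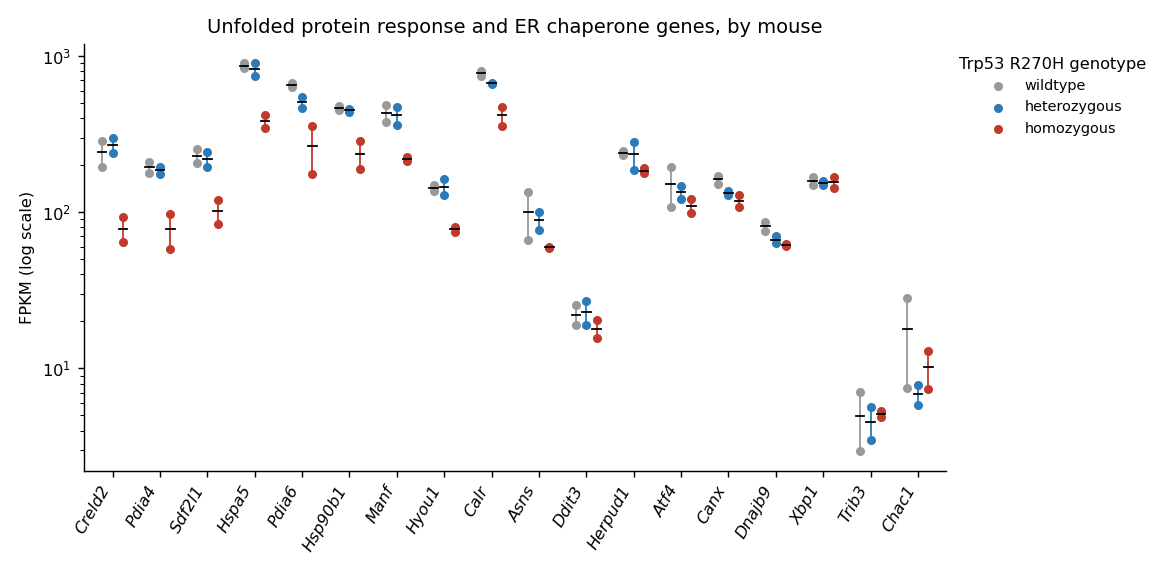
FPKM (log axis) by mouse for the 18 genes of the unfolded protein list, ordered by log2 fold change, with points for mice, a line joining the 2 mice of a genotype and a black bar at their mean. In the 9 genes on the left both homozygous points (red) lie below all wildtype (grey) and heterozygous (blue) points, while Xbp1, Trib3 and Chac1 on the right overlap.

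Hspa5 (ENSMUSG00000026864, chromosome 2, 34771970 to 34777547, plus strand), the chaperone BiP that controls the sensors of the response, had 899 and 746 FPKM in heterozygous mice against 348 and 418 in homozygous mice (-1.10, SE 0.214, 95% interval -1.63 to -0.57). Wildtype mice had 839 and 897. Creld2, a secreted stress-response protein, had 299 and 239 against 64.0 and 93.4 (-1.79, SE 0.276), the lowest of the list. The disulfide isomerase gene Pdia4 had 194 and 177 against 58.1 and 97.1 (-1.30, SE 0.260). Both homozygous mice were well below both heterozygous mice in each of these 3 genes. Sdf2l1 (-1.12), Pdia6 (-1.01), Hsp90b1 (-0.95), Manf (-0.91), Hyou1 (-0.90) and Calr (-0.70), which encode further chaperones or secreted and partner proteins, completed the 9. The regulators Xbp1 (0.02), Ddit3 (-0.34), Atf4 (-0.29) and Trib3 (0.20) did not meet the criterion, nor did Chac1 (0.53), Herpud1 (-0.32), Canx (-0.17), Dnajb9 (-0.11) and Asns (-0.56).

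The chaperones are abundant in secretory cells, and the prostate secretory markers were low in mouse 47. Without mouse 47, 7 of the 18 met the criterion and the median was -0.53, with Hspa5 at -0.97 and Creld2 at -1.52. Pdia6 (-0.51) and Calr (-0.50) then missed it. Without mouse 37, 7 of the 18 met it as well, with a median of -0.52. The sum of the 6 secretory markers was 2595 (mouse 47) and 20545 (mouse 49), with 48104 (mouse 37) and 22441 (mouse 40) in heterozygous mice. Sbp gave 24775 of the sum of mouse 37 and was listed at 0 in the other mutant mice, which may be failed estimates. Of the 6 markers, 2 lay below in both homozygous mice (23.9% of all genes) and 4 overlapped. Of the 6 luminal epithelial markers, 4 lay below in both homozygous mice and 2 overlapped. The part of the secretory cells in the chaperone result was not tested.

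The promoters of the chaperone genes were searched for the endoplasmic reticulum stress response element, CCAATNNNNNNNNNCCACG, on both strands. It was present in 37 of 27025 genes (0.137%), in 6 of 16 genes of the list with a promoter (37.5%) and in 5 of 7 of the called ones (71.4%), namely Hspa5, Hsp90b1, Pdia6, Calr and Creld2. The other holder, Canx, did not meet the criterion. The elements of Hspa5 (chr2:34772005-34772063, plus strand), Creld2 (chr15:88819500-88819558, plus strand), Pdia6 (chr12:17266471-17266529, plus strand) and Canx (chr11:50325780-50325838, minus strand) are shown in capitals to set genes that were lower beside one that did not meet the criterion.
Hspa5: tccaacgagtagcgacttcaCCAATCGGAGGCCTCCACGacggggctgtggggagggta
Creld2: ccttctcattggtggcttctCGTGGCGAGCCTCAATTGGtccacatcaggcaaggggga
Pdia6: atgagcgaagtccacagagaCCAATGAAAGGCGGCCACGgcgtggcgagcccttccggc
Canx: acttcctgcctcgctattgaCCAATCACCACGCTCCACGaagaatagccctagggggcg
In Creld2 the element is on the opposite strand, so its letters appear as the reverse complement. The list was chosen as genes of this response, so its share is not independent evidence, and the called share rests on 7 genes. Here too, a match of letters is not evidence of binding.

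Gm24967 (ENSMUSG00000095361, chromosome 4, 108466944 to 108467050, minus strand) is annotated as a small nuclear RNA gene of 107 bases that lies inside Zcchc11, a gene for an RNA uridylyltransferase on the opposite strand. Its FPKM was 71.4 and 111 in homozygous mice, and it was listed at 0 in both heterozygous and both wildtype mice (adjusted p = 0.0039 from limma), so no fold is given. Zcchc11 had 10.3 and 9.58 in homozygous and 10.7 and 10.1 in heterozygous mice. Without either heterozygous mouse, the adjusted p of Gm24967 from limma was 0.0766 (without mouse 37) and 0.138 (without mouse 40). Gm43493, a processed pseudogene of 202 bases picked out after its values were seen, had 3.30 and 9.82 in homozygous mice, no more than 0.04 in either heterozygous mouse, and 4.87 and 5.33 in wildtype mice. Both are short genes, and Gm43493 was lower in heterozygous mice than in either other genotype.

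Of 14 heat shock genes, which encode cytosolic and mitochondrial chaperones, 3 were lower by the criterion (1.84% of all genes). They were Hsph1 (-0.88), Hspb1 (-0.85) and Hspe1 (-0.64), and the list median was -0.22. Hsph1 had 30.7 and 22.1 FPKM in heterozygous against 14.3 and 13.95 in homozygous mice. Hspb1 had 261 and 153 against 118 and 103, and Hspe1 had 135 and 89.6 against 72.1 and 69.0. Mouse 37 was the highest of the 4 in both genes. Wildtype mice had 17.8 and 17.9 for Hsph1, 138 and 164 for Hspb1, and 89.5 and 114 for Hspe1. Without mouse 37, Hspb1 (-0.47) and Hspe1 (-0.34) missed the criterion and 1 of the 14 genes met it. Both also missed it on unadjusted p without mouse 47 (-0.95 and -0.67) or mouse 49 (-0.75 and -0.61). Hsp90ab1 had 753 and 652 against 433 and 505 (-0.58, unadjusted p = 0.0271 from limma), just under the fold required. Of 11 immediate early genes, 0 met the criterion, while 0 lay above and 6 below without overlap (23.9% of all genes), among them Jun (-0.31), Junb (-0.44), Klf4 (-0.47), Dusp1 (-0.36) and Nr4a1 (-0.54). Their median was -0.36, and -0.17 without mouse 47. Fos and Egr1 had 3.93 and 5.77 in mouse 47 but 11.2 and 15.6 in mouse 49, so for these genes the homozygous mice overlapped the heterozygous ones. Among 76 cytosolic ribosomal protein genes, 0 met the criterion, yet 58 lay below without overlap (23.9% of all genes) and the median was -0.33. Their shift depended on scaling, with 35 below and a median of -0.13 after quantile normalization, and on single mice, with a median of -0.14 without mouse 37 and -0.50 without mouse 40.

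Interferon-stimulated genes, which defend against viruses and respond to nucleic acids in the cytosol, were mostly higher in homozygous mice. By the criterion, 2 of 19 were higher (0.959% of all genes). Of 19, 12 lay above without overlap (18.1% of all genes), 0 below, and the median was 0.39. The list sum was 145 and 130 in homozygous, 119 and 116 in heterozygous, and 155 and 119 in wildtype mice. The homozygous sums thus lay between those of the wildtype mice. Usp18, which damps interferon signalling, had 2.98 and 2.21 FPKM in heterozygous against 7.30 and 3.70 in homozygous mice (0.99). Ddx58, the RNA sensor RIG-I, had 5.31 and 6.65 against 10.04 and 8.59 (0.63). These 2 met the unadjusted criterion, and the heterozygous minus wildtype median was -0.20. Without mouse 47 the list median was 0.31, without mouse 37 it was 0.27, and in both cases 0 of 19 met the criterion. B2m, of antigen presentation, was 8211 in mouse 47, 3302 in mouse 49, and 3279 and 3338 in heterozygous mice.

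Genes of sterol synthesis had a median of 0.26, with 12 of 19 above without overlap (18.1% of all genes) and 2 below (23.9%). The list sum was 261 and 205 in homozygous, 197 and 197 in heterozygous, and 221 and 242 in wildtype mice. Without mouse 47 the median was 0.11, with 5 below and 0 meeting the criterion. Sc5d, a late enzyme of the pathway, met the criterion (0.67), with 11.7 and 14.4 FPKM in heterozygous against 25.6 and 16.7 in homozygous mice. Insig1, which restrains the pathway, had 17.4 and 17.7 against 25.0 and 23.5 (0.47, unadjusted p = 0.00477 from limma). Of the 13 protein genes of the mitochondrial genome, 10 lay above without overlap (18.1% of all genes). Their median was 0.50, but it was 0.15 without mouse 47. By the criterion mt-Atp6 was higher (0.84), with 9.97 and 11.2 FPKM in heterozygous against 25.0 and 14.4 in homozygous mice. These levels are far under the 7910 and 13293 listed for mt-Atp8 in heterozygous mice, so the estimate may not be reliable. The same holds for mt-Co2, mt-Co3, mt-Nd3 and mt-Nd4l. Of 74 nuclear genes of the respiratory chain, Cox6b2 was lower by the criterion (-0.77, and -0.54 without mouse 37). Without mouse 47, Sc5d (0.36) and mt-Atp6 (0.44) were under 1.5-fold. Of 16 tested genes of replication and mitosis 0 met the criterion, with a median of 0.17. Of 15 genes of damage signalling 0 did, with a median of 0.20, and Atm had 0.621 and 1.13 in heterozygous against 3.87 and 1.38 in homozygous mice (1.36, unadjusted p = 0.0575 from limma). Of the 10 tested genes of the Bcl2 family outside the p53 lists, 0 met the criterion.

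**Figure D5:**
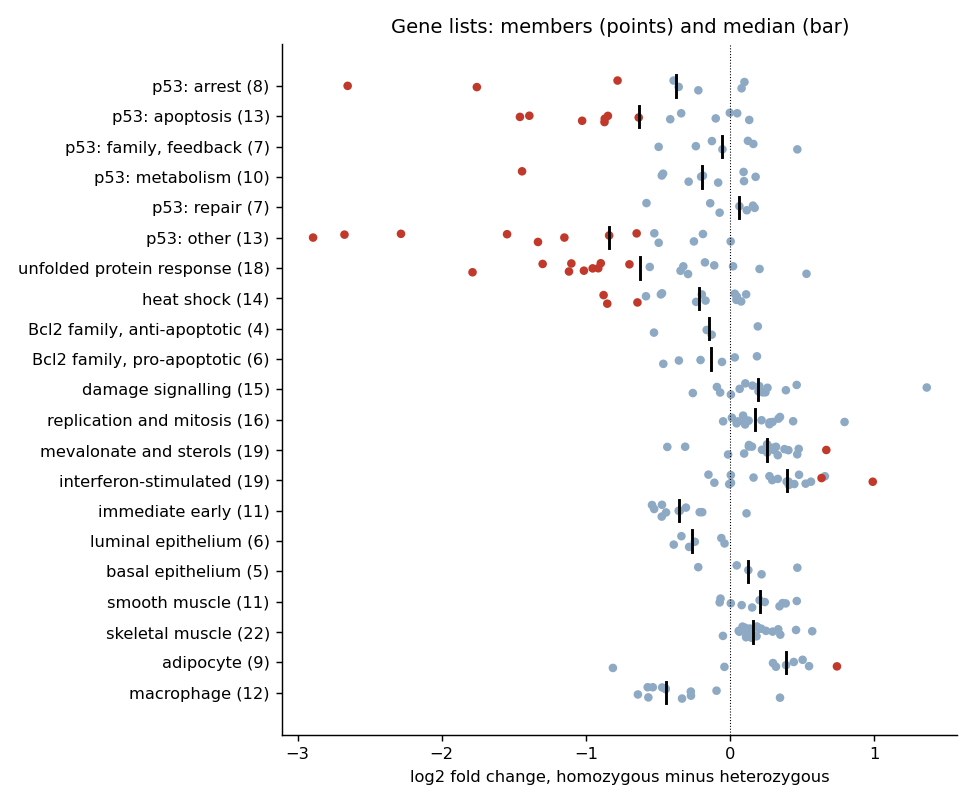
Log2 fold change (homozygous minus heterozygous, log2(FPKM + 0.1) scale) of the tested members of 21 gene lists, with the number tested in brackets, red points for members that met the unadjusted criterion and a black bar at the list median. The lists of p53 arrest, apoptosis and other targets and of the unfolded protein response hold 3, 7, 8 and 9 red points, all left of 0.

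The 10 largest positive differences among named genes that met the unadjusted criterion without overlap at a mean FPKM of at least 5 ran from 0.91 to 1.53 on the log2 scale. They included Nr4a3, an orphan nuclear receptor (1.53), Thrsp, a regulator of lipogenesis (1.19), Ank, a pyrophosphate exporter (1.18), Slc16a6 (1.16), the collagen VI chain gene Col6a3 (1.03), Rhobtb3 (1.01), the fatty acid desaturase gene Fads2 (1.00), Hoxb3 (0.96) and Ccnd1, cyclin D1 (0.91). In all 10, mouse 47 was higher than mouse 49. Ccnd1 had 37.8 and 43.4 FPKM in heterozygous mice, 92.1 in mouse 47 and 62.9 in mouse 49 (SE 0.240). Without mouse 47, the log2 fold change of Ccnd1 was 0.63 (unadjusted p = 0.0485 from limma), and Slc16a6 (0.86) and Col6a3 (0.68) also stayed under an unadjusted p of 0.05. Nr4a3 (1.19), Ank (0.54), Rhobtb3 (0.75), Fads2 (0.65) and Hoxb3 (0.68) then missed that threshold, with unadjusted p-values from limma between 0.0866 and 0.195, and Thrsp (0.47) missed the fold. Without mouse 37, Slc16a6 (0.98) was the only one of these 9 genes that met the criterion.

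Among the 10 largest negative differences by the same rule, Cdkn1a, Gdf15 and Creld2 are described above, and Svs2 was listed at 0 in both homozygous mice. A further 4 were immunoglobulin light chain segments, Igkv4-63, Igkv3-12, Igkv14-111 and Igkv8-30, near-identical genes among which reads may be shared. The constant region gene Igkc had 495 and 526 FPKM in heterozygous, 83.5 and 272 in homozygous and 228 and 371 in wildtype mice (-1.76, SE 0.561), and its log2 fold change was -0.90 without mouse 47 (unadjusted p = 0.0518 from limma). Ighm had 145 and 156 against 8.88 and 88.7 (-2.41, unadjusted p = 0.0526 from limma). The 13 lymphocyte markers summed to 98 and 367 in homozygous and 645 and 687 in heterozygous mice. Most of each sum came from Igkc and Ighm, so it says little about the other markers. Of the 13, 4 were tested, and Igkc was lower by the criterion. Ltb (-0.78) was lower in both homozygous mice. The T cell gene Cd3g was higher in both, with 0.435 and 0.629 FPKM in heterozygous against 2.35 and 0.704 in homozygous mice (1.17). The remaining markers stayed under the filter, and 0 of the 13 were listed at 0 in a mouse. Scgb2b20, a secretoglobin, had 88.0 and 28.7 against 18.6 and 3.01 (-2.73), and -1.92 without mouse 37 (unadjusted p = 0.239 from limma).

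Markers of other tissues were compared between the genotypes as well. The 24 skeletal muscle markers summed to 8864 and 7656 in homozygous and 7089 and 7531 in heterozygous mice, against 2593 and 3729 in wildtype mice, and 0 of 22 tested met the criterion (median 0.16). Smooth muscle markers summed to 3418 and 2349 in homozygous mice, with 2862 and 2338 in heterozygous ones (median 0.20, 0 of 11). Adipocyte markers summed to 739 and 667 in homozygous mice, with 424 and 538 in heterozygous ones and a median of 0.39, and Cfd, the adipsin gene, was higher by the criterion, with 144 and 193 FPKM in heterozygous against 256 and 304 in homozygous mice (0.74). Without mouse 37, Cfd (0.53) missed the criterion and the adipocyte median was 0.23. Macrophage markers summed to 138 in mouse 47 and 315 in mouse 49, with the heterozygous mice at 316 and 265, and 0 of 12 met the criterion. The androgen receptor targets and cofactors had a median of -0.44, and -0.17 without mouse 47, with 0 of 8 meeting the criterion. The part of these tissues in the differences of p53 targets and chaperones was not tested.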

How the data were processed

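The authors extracted RNA from snap-frozen prostates, prepared stranded libraries of polyadenylated RNA and sequenced read pairs. Per the submitters' processing notes and the methods, reads were aligned to GRCm38 (mm10) with HISAT and quantified with Cufflinks and Cuffnorm, whose versions are not given in the sources used here. The authors deposited gene-level FPKM for each of 6 mice, which correct for gene length and mapped fragments. The files hold 47719 Ensembl identifiers, 47219 of them in GENCODE M21, which gave positions. For 124 symbols with several identifiers, the one with the highest mean FPKM was named. Fragment counts are not in the deposited values, so no count test was used and the counting error of a single value is unknown. From the steps of the lowest values, relative fragment numbers lay between 0.79 (mouse 47) and 1.07 (mouse 49), with wildtype mouse 39 set to 1.

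Genes whose FPKM averaged 1 or more in the 4 mutant mice were tested on log2(FPKM + 0.1), which understates changes of low genes, with limma 3.58.1 in R 4.3.3 (lmFit, eBayes with trend) in 1 fit of the 3 genotypes. The contrast was homozygous minus heterozygous, two-sided, with Benjamini-Hochberg adjustment and a threshold of 0.05. The unadjusted criterion, p under 0.05 and at least 1.5-fold, takes its cut-offs, but not its test, from the study. The fit was tested on simulated data. Python 3.11.15 with pandas 2.3.3 and matplotlib 3.10.9 did the rest.

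The groups came from the submitters' labels, which name no batch, litter or pairing. The mice are separate animals, 2 per genotype. The p-values rest on a gene's spread within genotypes over the mice in the fit, which limma combines with the spread of all tested genes. The comparison and gene lists were chosen with earlier results of these data known. Named genes were all with an adjusted p under 0.05, the 10 largest rises and 10 largest falls that met the unadjusted threshold without overlap at a mean FPKM of at least 5 and were not predicted genes, members of the p53 and study lists, and in other lists the 4 largest changes and every member called. Gm37795 and Gm43493 were added after their values were seen. Promoter and microRNA sequences are from RefSeq. Some genes are not reported here.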

Additional observations from a re-analysis of the deposited data

How the results depend on the processing

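Alternatives were a pseudocount of 1 or 0.01, no filter, a filter at a mean FPKM of 5, scaling by quantiles or by medians, no intensity trend, a fit of the 4 mutant mice alone and leaving out each mouse. Genes above 0 in all mice was added after seeing the data. The number of genes with an adjusted p under 0.05 was 2. It was 1 with a pseudocount of 0.01, 1 at a mean FPKM of at least 5 and 1 for genes above 0 in all mice, and between 0 and 46 with a mouse left out. It was 0 without mouse 37 and without mouse 40, 4 without either wildtype mouse, 12 without mouse 47 and 46 without mouse 49, where the lone mouse of a genotype is assumed to vary like the others. At an unadjusted p under 0.05, 185 genes differed in limma without mouse 37 and 946 without mouse 40. The number that met the unadjusted criterion was 388, with 894 of 25281 genes without a filter, 200 of 9333 at a mean FPKM of at least 5, and between 142 (without mouse 37) and 1301 (without mouse 49) with a mouse left out. Genes without overlap numbered 5827, 8952 without a filter, and between 5827 and 10606 with a mouse left out, where a single value is compared with 2. Over the alternatives the log2 fold change of no named gene that was called changed sign. Cdkn1a missed the adjusted threshold without mouse 37 or mouse 40. Gm24967 did so in those 2 and with a pseudocount of 0.01 (adjusted p = 0.0628 from limma) or a mean FPKM of at least 5 (0.0868). Another 7 named genes passed it in 1 or more alternatives, among them Eda2r without mouse 49 (0.0441). Of 42 list medians, 23 moved by more than the spread between mice in at least 1 alternative. No paired analysis was possible because the genotypes share no replicate numbers, the numbers being those of the animals. FPKM without fragment counts and 2 mice per genotype limit the precision.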
